A study of Mus musculus with 6 samples.

Results

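Lbp, Cd14, Ly96, Tlr4, Tlr2, Myd88, Nfkb1, Rela, Nfkbia and Tnfaip3, the genes by which a liver senses endotoxin and by which the NF-κB response restrains itself, were followed in livers of C57BL/6J mice fed a regular diet (RD) or a high-cholesterol diet (HCD) for 3 days. The 10 genes were listed by symbol, with earlier results of these data known, and all 10 were among the 20673 genes of the deposited tables. RNA-seq was performed on 3 RD livers and 3 HCD livers, with 1 library per liver and no infection or other treatment in either group. RD was a standard Teklad rodent chow, and HCD (TD.88051) held more fat and cholesterol with cocoa butter and sodium cholate, so that the diets differed in several components at once and the cholesterol cannot be told apart from the cholate or the fat. The study used male and female mice bought as C57BL/6J and lists them at about 3 months old. The labels do not give the sex or age of single livers. The question was what the diet alone does to these genes before any sepsis.

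Endotoxin, the lipopolysaccharide of Gram-negative bacteria, is picked up in plasma by LBP and handed to CD14, which passes it to the complex of TLR4 and MD-2 (encoded by Ly96). TLR2 senses bacterial lipoproteins instead, and both receptors signal through the adaptor MYD88 to the IKK complex, which frees the NF-κB dimer of p50 (from Nfkb1) and RELA from its inhibitor IκBα (encoded by Nfkbia). NF-κB then transcribes Nfkbia and Tnfaip3 (A20, a ubiquitin-editing enzyme) among its targets, and their proteins end the signal. In liver, hepatocytes make LBP as a plasma protein, whereas the resident Kupffer cells carry much of the TLR4 and CD14.

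The libraries held between 13771630 and 23129576 counts, with 15024 to 17804 genes detected per liver, so that 3 counts, the limit that a count of 0 allows, equalled 0.1297 to 0.2178 CPM (counts scaled to the library total, and for the gene values below also by TMM). HCD replicate 1 stood apart from the other livers in its sex-linked genes: it held 5032 Xist counts and 0 counts of Ddx3y, Uty, Kdm5d and Eif2s3y, and the other 5 livers held 0 Xist counts and counts of all 4 Y-linked genes. It was therefore the only liver with a female pattern, and values without it are given where it decides a call or moves a value widely. The hepatocyte markers summed to between 99100 and 146000 CPM and overlapped between diets. The library names follow 1 series for the RD livers and another for the HCD livers, so that any difference in handling between these series cannot be told apart from diet. The p-values set the difference between diets against the spread among these 6 livers, which edgeR and DESeq2 estimate with information shared over genes.

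Among the targets of NF-κB in these lists, Nfkbia was higher and the chemokine gene Cxcl1 was lower with HCD (below), and their start regions are shown first because both hold a match to the binding consensus of NF-κB. The RefSeq sequence on GRCm38.p6 was searched over the 250 bases upstream of each RefSeq start for the 10-base κB consensus, on both strands and with overlapping matches merged. Only bases outside the exons of GENCODE M21 are printed, 5′ to 3′ on the strand of the gene, and the capitals mark the matches. The Nfkbia stretch lies at chr12:55492648-55492897 (minus strand), directly upstream of exon 1, with its match 29 to 20 bases upstream of the start. The Cxcl1 stretch lies at chr5:90890995-90891240 (plus strand), with its match 71 to 61 bases upstream.
Nfkbia: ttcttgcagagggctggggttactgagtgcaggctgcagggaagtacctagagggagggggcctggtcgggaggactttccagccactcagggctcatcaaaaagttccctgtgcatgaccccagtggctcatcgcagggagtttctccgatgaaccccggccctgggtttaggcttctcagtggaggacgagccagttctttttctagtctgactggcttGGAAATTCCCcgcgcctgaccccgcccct
Cxcl1: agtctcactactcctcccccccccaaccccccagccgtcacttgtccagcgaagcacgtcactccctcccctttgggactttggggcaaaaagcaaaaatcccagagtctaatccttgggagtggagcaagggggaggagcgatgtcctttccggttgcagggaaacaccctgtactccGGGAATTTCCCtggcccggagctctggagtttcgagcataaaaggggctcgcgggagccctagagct

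Start windows were given for 5 of the 10 genes, and 3 of these 5 held a match. Beside Nfkbia these were Tlr2 and Tnfaip3, which are printed to set their sites beside that of Nfkbia. The Tlr2 stretch at chr3:83841768-83841858 (minus strand) lies upstream of the gene. The Tnfaip3 stretch at chr10:19015411-19015547 (minus strand) lies in the first intron of the longest GENCODE model and upstream of the RefSeq start, and holds matches at 125 to 116 and at 12 to 3 bases before that start.
Tlr2: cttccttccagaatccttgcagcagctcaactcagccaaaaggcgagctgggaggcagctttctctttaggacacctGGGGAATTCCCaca
Tnfaip3: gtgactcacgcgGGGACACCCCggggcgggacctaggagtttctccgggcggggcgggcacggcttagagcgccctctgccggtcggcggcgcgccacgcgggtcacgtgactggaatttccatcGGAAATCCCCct

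The Myd88 and Rela windows held no match, which says only that these letters are not in the windows searched. Of all 27025 genes with a window, 4.46% held a match, against 22.7% (22 of 97) of the genes in the pathway lists used here. These lists were chosen around NF-κB and genes it induces, so the larger share is not a result about diet. Pathway genes with a match lay on both sides of 0: of the 17 tested pathway genes with a match, 8 had a log2 fold change above 0 and 9 below 0, with a median of -0.09, and the 60 tested genes without a match had the same median of -0.09. Among those with a match, Nfkbia was the 1 gene called higher and Cxcl1 the 1 gene called lower, and among those without, 2 were called higher (Apoe and Saa3) and 2 lower (Hsp90b1 and Irak2).

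In the comparison of HCD with RD, Cd14 and Nfkbia rose and the other 8 genes did not pass the test. Genes were called by the quasi-likelihood F test of edgeR, at a p under 0.05 after Benjamini-Hochberg correction for the 13105 genes tested. All 10 genes passed the filter on low counts. Thus 2 of 10 were called higher and 0 of 10 lower, beside 3.27% of all tested genes called in either direction (1.95% higher and 1.32% lower, an excess of higher calls that depends on the scaling, with 255 higher and 173 lower by TMM, 291 and 156 by upper-quartile factors and 158 and 161 by library sizes alone), and DESeq2 called the same 2 genes at a background of 6.97%. Without adjustment, at p of 0.05 or less, edgeR counted the same 2 genes, beside 20.9% of all genes. The diets did not overlap in CPM for 4 of 10 genes, 2 higher and 2 lower, beside 27.6% of all tested genes (14.0% higher and 13.7% lower). The median log2 fold change of the 10 genes was 0.04 (0.17 with a filter at a mean of 50 counts and 0.18 without RD replicate 2), and that of all tested genes was 0.01. Of the 10 genes 5 lay above 0 and 5 below.

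**Figure D1:**
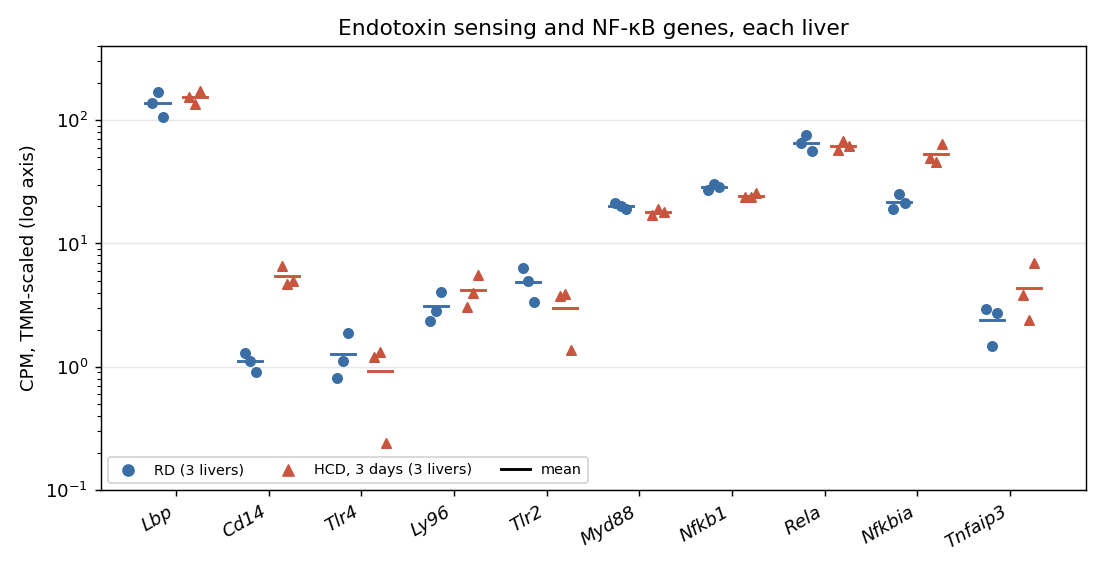
Level of each of the 10 genes in each liver, in TMM-scaled CPM on a log axis, with RD and HCD livers side by side, each point 1 liver and each bar the mean of 3. Cd14 and Nfkbia are separated by diet by a wide gap, Myd88 and Nfkb1 by a narrow gap in the other direction, and the other 6 genes overlap.

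Lbp, which encodes the plasma carrier of endotoxin, lay at chr2:158306493-158332852 (GRCm38, as are all gene positions here). It was measured at 137, 170 and 107 CPM in the RD livers and at 154, 135 and 173 CPM in the HCD livers. The 2 sets overlapped throughout, and its log2 fold change was 0.16 (SE 0.19, 95% interval -0.28 to 0.59), with an adjusted p of 0.685 in edgeR. Leaving out RD replicate 3, the lowest liver, brought the difference to -6.9e-05.

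Cd14, the co-receptor that takes endotoxin from LBP, was measured at 1.30, 1.12 and 0.912 CPM in the RD livers, from 27, 16 and 21 counts. In the HCD livers it reached 6.62, 4.69 and 4.94 CPM, from 131, 68 and 61 counts. Every HCD liver thus lay above every RD liver. The fitted fold change was 4.88 (log2 2.29, SE 0.35, 95% interval 1.5 to 3.09), with an adjusted p of 0.0180 in edgeR and 2.2e-05 in DESeq2. Its raw p ranked 92 of the 13105 genes tested. The size held without any 1 liver, between 2.11 and 2.42 on the log2 scale, but the call was lost without RD replicate 1 (adjusted p 0.0825), RD replicate 2 (0.0857) or RD replicate 3 (0.0521), and was kept without HCD replicate 1 (0.0442). In whole liver RNA, more cells that carry Cd14 and more Cd14 RNA per cell cannot be told apart.

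The genes of the receptors themselves did not pass the test. Ly96, which encodes the endotoxin-binding MD-2 (chr1:16688051-16709611), was measured at 2.36, 2.86 and 4.08 CPM with RD and at 3.03, 4.0 and 5.51 CPM with HCD. Its log2 fold change of 0.42 (SE 0.37, interval -0.41 to 1.26) had an adjusted p of 0.548 in edgeR. Tlr4, the receptor for endotoxin (chr4:66827584-66930284), had the lowest mean level per gene length of the 10 genes under both diets. It held 17, 16 and 43 counts in the RD livers and 24, 19 and 3 counts in the HCD livers. Its values in HCD replicates 1 and 2 lay within the RD range, and HCD replicate 3 was at the detection limit of 3 counts. The log2 fold change of -0.44 (SE 0.67, interval -1.97 to 1.09, adjusted p 0.750 in edgeR) became -0.02 without that liver, and its interval is too wide to show a difference or the lack of one.

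Tlr2, the receptor for bacterial lipoproteins (chr3:83836272-83841767), was measured at 6.34, 4.95 and 3.34 CPM in the RD livers and at 3.74, 3.93 and 1.38 CPM in the HCD livers. HCD replicate 3 again lay below every other liver, and HCD replicates 1 and 2 lay inside the RD range. The log2 fold change was -0.68 (SE 0.44, interval -1.69 to 0.33, adjusted p 0.418 in edgeR), and -0.35 without HCD replicate 3. That liver also had the fewest genes detected, 15024.

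Myd88, the adaptor shared by most Toll-like receptors, and Nfkb1 and Rela, the NF-κB subunits, differed little between diets and did not pass the test. Myd88 (chr9:119335934-119341411) was measured at 21.4, 20.0 and 19.1 CPM with RD and at 17.0, 19.0 and 18.1 CPM with HCD. Every HCD liver lay below every RD liver, yet the log2 fold change was only -0.16 (SE 0.14, interval -0.48 to 0.15, adjusted p 0.537 in edgeR). Its exons share 290 of 2576 bases with Acaa1a on the opposite strand, a peroxisomal thiolase gene at a mean of 184 CPM, and as the strand of the counting is not given, reads of the 2 genes cannot be told apart there.

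Nfkb1 (chr3:135584655-135691547) was measured at 27.4, 30.4 and 28.8 CPM in the RD livers and at 23.8, 23.8 and 25.6 CPM in the HCD livers. The diets again did not overlap, as for 13.7% of all tested genes in this direction, and the log2 fold change of -0.24 (SE 0.13, interval -0.54 to 0.05) had an adjusted p of 0.320 in edgeR. It is the longest of the 10 genes, with 12061 exon bases, and removing each library's trend with gene length brought the difference to -0.08. Rela (chr19:5637483-5648130) was measured at 65.5, 75.2 and 56.1 CPM with RD and at 56.9, 67.3 and 61.8 CPM with HCD. All 3 HCD livers lay inside the RD range, and the interval of its log2 fold change was -0.41 to 0.25 around -0.08 (SE 0.14, adjusted p 0.790 in edgeR).

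Nfkbia, which encodes the inhibitor that holds NF-κB in the cytoplasm (chr12:55489410-55492647), gave the smallest p of the 10 genes. It was measured at 19.1, 25.0 and 21.3 CPM in the RD livers and at 49.5, 45.9 and 64.4 CPM in the HCD livers. The highest RD liver thus lay well under the lowest HCD liver. The fold change was 2.44 (log2 1.29, SE 0.18, interval 0.89 to 1.69), with an adjusted p of 0.0130 in edgeR and 2.24e-07 in DESeq2, and ranked 59 of 13105 genes by raw p. Without any 1 liver the log2 fold change stayed between 1.12 and 1.40, and the call was lost only without RD replicate 1 (adjusted p 0.0755). Without HCD replicate 1 the log2 fold change was 1.34 (adjusted p 0.0181).

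Tnfaip3, the other feedback gene (chr10:19000910-19015657), was measured at 2.93, 1.47 and 2.74 CPM with RD and at 3.79, 2.41 and 6.89 CPM with HCD. HCD replicate 2 lay inside the RD range and the other HCD livers above it. The log2 fold change of 0.86 (SE 0.47, interval -0.21 to 1.92) had an adjusted p of 0.335 in edgeR, and fell to 0.37 without HCD replicate 3. The interval takes in the change of Nfkbia, so the 2 feedback genes were not shown to differ.

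**Figure D2:**
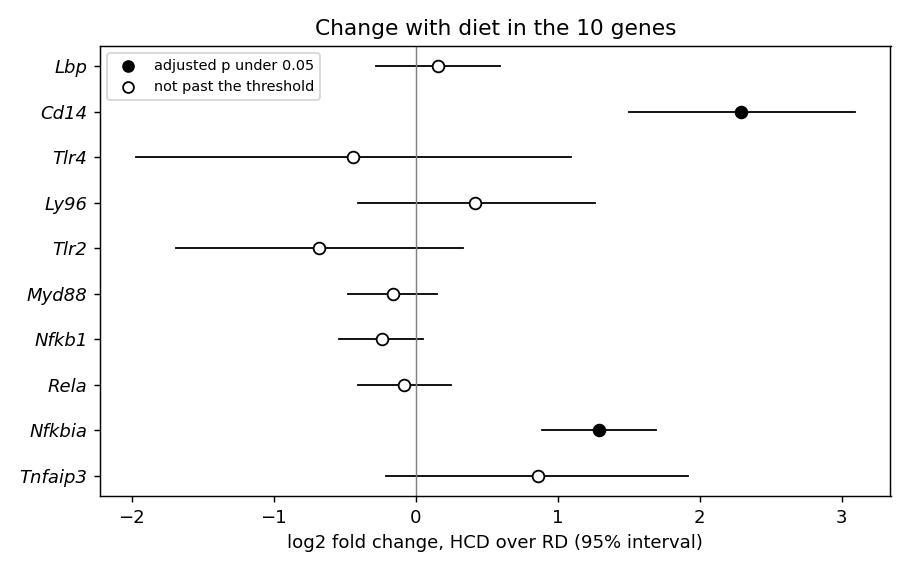
Log2 fold change of each of the 10 genes, HCD over RD, as a circle with its 95% interval from edgeR's fit to 3 livers per diet as a line, filled where the gene was called. The intervals of Cd14 (1.5 to 3.09) and Nfkbia (0.89 to 1.69) lie above 0, and the other 8 cross 0.

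The change in Nfkbia altered the order of the genes by level per gene length, as given by the deposited FPKM. In the RD livers Lbp led at 41.7 ± 8.77 FPKM (SD, n = 3), overlapping with Rela at 35.2 ± 4.42, and Nfkbia followed at 19.8 ± 2.51 FPKM below both. In the HCD livers Nfkbia was at 49.2 ± 9.66 FPKM, overlapping with Lbp at 47.4 ± 6.80, and both lay above Rela at 33.9 ± 2.14 FPKM. Cd14 moved from the eighth place, 1.03 ± 0.167 FPKM and below Tlr2 in every RD liver, to the sixth, 5.13 ± 1.08 FPKM, where it overlapped with Ly96 at 6.08 ± 1.84 and lay above Nfkb1. Tnfaip3 and Tlr4 were last under both diets, at 0.482 ± 0.166 and 0.335 ± 0.150 FPKM with RD, where they overlapped, and at 0.901 ± 0.483 and 0.245 ± 0.156 FPKM with HCD, where they did not.

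The inhibitor was also compared with the subunits it binds, as a ratio of FPKM within each liver. These ratios were chosen after the values were seen. The ratio of Nfkbia to Rela was 0.493, 0.562 and 0.641 in the RD livers and 1.47, 1.15 and 1.76 in the HCD livers. The inhibitor transcript was thus below Rela in every RD liver and above it in every HCD liver, and the exact two-sided permutation p was 0.1, the smallest that 3 against 3 livers can give. The ratio of Nfkbia to Nfkb1 was 5.65 ± 0.481 (SD, n = 3) in the RD and 16.3 ± 2.26 in the HCD livers. The ratio of Lbp to Cd14 went the other way, from 34.4, 49.7 and 38.1 with RD to 7.56, 9.34 and 11.4 with HCD.

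Markers of Kupffer cells, a main source of Cd14, were set beside it. The 12 markers, which include the lectin gene Clec4f and the scavenger gene Cd5l, summed to 173, 216 and 283 CPM in the RD livers and to 519, 462 and 241 CPM in the HCD livers. All 12 had a log2 fold change above 0 (median 0.89), none was at 0, and 6 reached p of 0.05 or less before adjustment, beside 20.9% of all genes in either direction. In edgeR 1 of the 12 was called, the macrophage lysosomal gene Cd68, beside 1.95% of all genes called higher, and in DESeq2 5 were called higher, beside 6.97% in either direction. Cd68 was measured at 3.85, 4.33 and 5.12 CPM with RD and at 10.5, 9.79 and 11.3 CPM with HCD (log2 fold change 1.24, SE 0.22, adjusted p 0.0277 in edgeR). That call was lost without RD replicate 1 (adjusted p 0.130), RD replicate 2 (0.120), RD replicate 3 (0.0521), HCD replicate 1 (0.0518) or HCD replicate 3 (0.0744), and with all 6 livers after removal of the trend with gene length (log2 fold change 1.06, adjusted p 0.0503). Cd5l, the most abundant marker by FPKM over both diets but not in the RD livers, had a log2 fold change of 1.21 that missed the threshold in edgeR (adjusted p 0.101) but passed it in DESeq2 (0.00189) and in edgeR with no filter (0.035).

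In HCD replicate 3 the summed Kupffer markers lay inside the RD range at 241 CPM, and Cd14 there was 4.94 CPM, above every RD liver. Per 100 CPM of Kupffer markers, Cd14 was 0.751, 0.518 and 0.322 CPM in the RD livers and 1.28, 1.01 and 2.05 CPM in the HCD livers. The ratio of Cd14 to Cd68 in FPKM was 0.270, 0.206 and 0.142 with RD and 0.506, 0.383 and 0.351 with HCD. Both ratios, also chosen after the values were seen, separated the diets, with the smallest exact permutation p of 0.1. Monocyte and dendritic cell markers (8 genes, with Itgam at 0 in RD replicate 1 and Flt3 at 0 in RD replicate 3) summed to 7.21 to 8.86 CPM with RD and to 11.2 to 16.1 CPM with HCD, without overlap. Neutrophil markers (9 of 10 listed in the tables) overlapped at 3.49 to 5.17 and 4.76 to 6.08 CPM. Sums for lymphocytes (6.83 to 12.4 CPM with RD and 5.92 to 15.5 with HCD), sinusoidal endothelium (140.0 to 242 and 175 to 275), stellate cells (337 to 404 and 372 to 640) and cholangiocytes (37.4 to 91.9 and 64.6 to 98.1) overlapped, as the Kupffer cell sums did. By direction, 10 of 10 tested stellate cell markers (median log2 fold change 0.50), 5 of 5 of monocytes and dendritic cells (0.77), 8 of 10 of sinusoidal endothelium (0.24) and 4 of 5 of cholangiocytes (0.60) lay above 0. Without HCD replicate 1, the liver with the female pattern, these medians were 0.27, 0.76, 0.02 and 0.46, and that of the Kupffer cell markers was 0.66. Hepatocyte markers went the other way, with 3 of 10 above 0 and 7 below (median -0.25, and -0.09 without RD replicate 3). Above 0 lay 2 of 3 tested neutrophil markers (median 0.09, and 0.43 without HCD replicate 2). So did 1 of 2 tested lymphocyte markers (median -0.40, and 0.12 with a filter at a mean of 50 counts). The median of monocyte and dendritic cell markers was 0.22 in limma on log2(FPKM + 1), and that of cholangiocyte markers 0.25 there and 0.08 with a filter at a mean of 50 counts. The tested marker with the highest mean FPKM in each of these lists, S100a9, Plac8, Cd4, Clec4g, Ecm1 and Spp1, and Alb for hepatocytes, was not called in edgeR (adjusted p 0.175 for Plac8 to 0.857 for Spp1). The part of these cells in the change of Cd14 and Nfkbia was not tested, and no ratio of Nfkbia to a cell marker was taken.

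**Figure D3:**
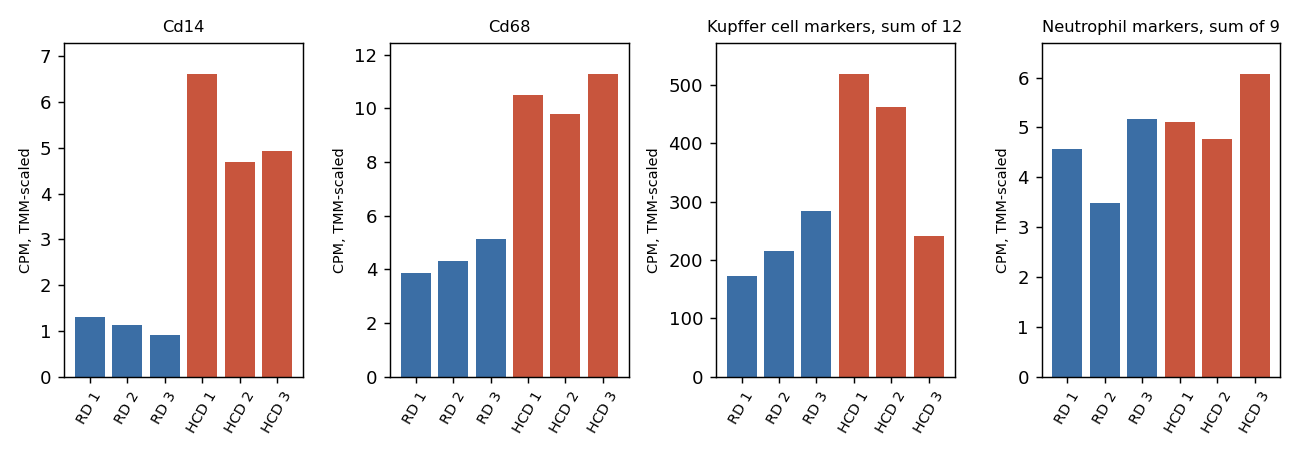
Bars of Cd14, Cd68, the sum of 12 Kupffer cell markers and the sum of 9 neutrophil markers in each liver, in TMM-scaled CPM on axes from 0, with RD livers in blue and HCD livers in red. Cd14 and Cd68 are above all RD livers in every HCD liver, whereas the Kupffer cell sum of HCD replicate 3 (241 CPM) lies within the RD range of 173 to 283 CPM.

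The other genes of the pathway, 117 in 7 lists of which 91 were tested, gave 2 called higher and 5 called lower, beside 1.95% and 1.32% of all genes tested, and their median log2 fold change of 0.01 equalled that of all genes. In DESeq2 these counts were 5 higher and 9 lower, beside 6.97% of all genes called there in either direction. With 1 liver left out, edgeR called 0 of these genes without RD replicate 1 or without RD replicate 2, 2 without HCD replicate 3, and 5 without each of the others.

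Of 16 other Toll-like receptors and co-receptors, 12 were tested. Hsp90b1 was the only gene called, in edgeR (beside 3.27% of all genes) and in DESeq2 (beside 6.97%). Before adjustment 4 were higher and 3 lower at p of 0.05 or less, beside 20.9% of all genes, and the diets did not overlap for 3 higher and 3 lower, beside 14.0% and 13.7%. Hsp90b1 encodes GP96, the chaperone that folds Toll-like receptors in the endoplasmic reticulum. It was measured at 896, 818 and 770 CPM in the RD livers and at 350, 449 and 464 CPM in the HCD livers (log2 fold change -0.97, SE 0.17, adjusted p 0.0258 in edgeR). The call was lost without RD replicate 1 (adjusted p 0.124), RD replicate 2 (0.113), RD replicate 3 (0.0583) or HCD replicate 3 (0.0606), while the log2 fold change stayed between -1.06 and -0.86. Cd180, a TLR4-like receptor of lymphoid and myeloid cells, had a log2 fold change of 1.33 (SE 0.42, adjusted p 0.125 in edgeR), Tlr7 one of 1.07 (SE 0.47, adjusted p 0.238) and Tlr5, the flagellin receptor, one of -0.94 (SE 0.34, adjusted p 0.167). Unc93b1, which carries the nucleic acid-sensing receptors to endosomes, was measured at 29.3, 32.0 and 32.8 CPM with RD and at 41.8, 39.4 and 42.3 CPM with HCD (adjusted p 0.126 in edgeR). Cd36, a scavenger receptor, had a log2 fold change of 2.19 with an adjusted p of 0.145 in edgeR, and of its HCD values of 160, 20.3 and 39.0 CPM the highest was that of the liver with the female pattern. Without that liver its log2 fold change was 0.88 (adjusted p 0.347 in edgeR).

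Of 21 adaptors and kinases between receptor and IKK, 19 were tested, and 16 of these had a log2 fold change below 0. The median of the list was -0.27, beside 0.01 for all genes, and -0.19 after removal of the trend with gene length. The diets did not overlap for 8 of 19, all lower, beside 13.7% of all tested genes, and 7 were lower at p of 0.05 or less before adjustment, beside 9.81%. After adjustment 1 gene was called lower, beside 1.32% of all genes. This was Irak2, a kinase recruited by MYD88, at 26.9, 31.0 and 28.9 CPM with RD and 16.7, 18.3 and 14.8 CPM with HCD (log2 fold change -0.80, SE 0.15, adjusted p 0.0295 in edgeR). Its call was kept only without HCD replicate 2, and was lost without any other liver (adjusted p 0.0530 without HCD replicate 1 to 0.126 without RD replicate 2), with log2 fold changes between -0.87 and -0.73. Tirap, which bridges MYD88 to TLR4 and TLR2, had a log2 fold change of -0.90 (SE 0.26, adjusted p 0.0981 in edgeR), called in DESeq2 (0.0163) and with no filter (0.046). Ticam1 (TRIF), the adaptor of the MYD88-independent branch, had one of -0.72 (SE 0.21, adjusted p 0.107 in edgeR), and without RD replicate 3 one of -0.92 that was called (0.0473). Chuk (IKKα), the most abundant by FPKM, was at -0.05 (adjusted p 0.844 in edgeR).

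**Figure D4:**
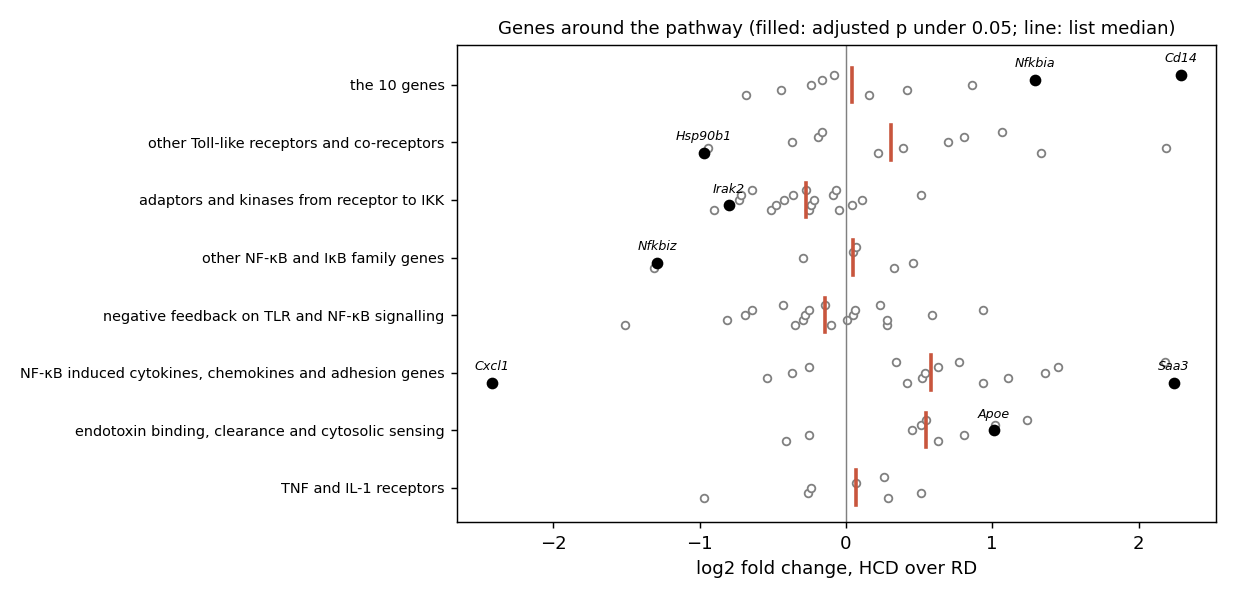
Log2 fold changes, HCD over RD, of the tested genes in the 10-gene set and in 7 other pathway lists, each point 1 gene, with the median of each list as a line and called genes filled and named (1 gene is not drawn). The adaptors and kinases lie mostly below 0 (16 of 19, median -0.27). The listed NF-κB induced genes, which are not only cytokine and chemokine genes, lie mostly above 0 (12 of 16, median 0.59).

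Of 8 other NF-κB and IκB family genes, 7 were tested and 1 was called, Nfkbiz lower, beside 1.32% of all genes. DESeq2 called 2 lower, beside 6.97% of all genes in either direction, and 2 were lower at p of 0.05 or less before adjustment, beside 9.81%. Nfkbiz, which encodes IκBζ, a nuclear and atypical member of the IκB family, fell from 11.0, 13.8 and 10.2 CPM with RD to 5.66, 5.38 and 3.08 CPM with HCD (log2 fold change -1.29, SE 0.28, adjusted p 0.0462 in edgeR). This call was lost whichever liver was left out (adjusted p 0.0543 without HCD replicate 1 to 0.190 without RD replicate 2) and, with all 6 livers, after removal of the trend with gene length (0.0563), with upper-quartile factors (0.0504), with library sizes alone (0.0698) and in both limma fits on FPKM (0.0521 and 0.0618). DESeq2 called it (0.00213). Bcl3, another nuclear member, had a log2 fold change of -1.31 (SE 0.35) that missed the threshold (adjusted p 0.0834 in edgeR), with 69.6, 96.8 and 35.1 CPM against 20.0, 34.0 and 27.2 CPM. It was called in DESeq2 (0.000565), in edgeR with no filter (0.0192) and without RD replicate 3 (log2 fold change -1.62, adjusted p 0.0373). The classical inhibitors Nfkbib and Nfkbie, which with Nfkbia hold NF-κB in the cytoplasm, overlapped between diets, at log2 fold changes of 0.07 (adjusted p 0.846) and 0.33 (adjusted p 0.676) in edgeR. Of the remaining NF-κB subunits, Nfkb2 was at -0.29 (adjusted p 0.510 in edgeR), Rel at 0.05 and Relb at 0.46, none called.

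**Figure D5:**
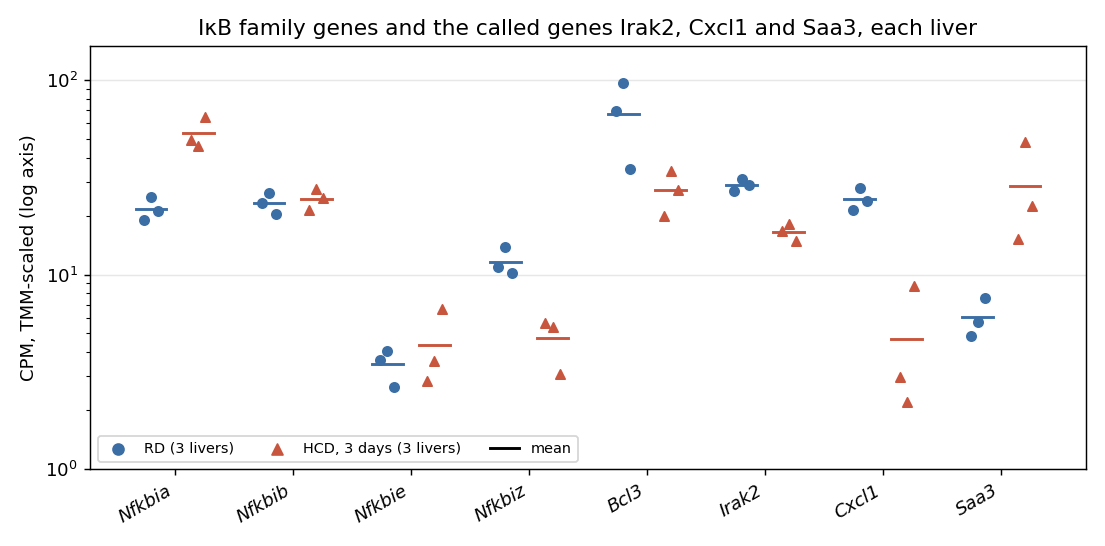
Level of 5 IκB family genes and of the called genes Irak2, Cxcl1 and Saa3 in each liver, in TMM-scaled CPM on a log axis, each point 1 liver and each bar the mean of 3. Nfkbia and Saa3 are high in the 3 HCD livers, Nfkbiz, Bcl3, Irak2 and Cxcl1 are low in them, and Nfkbib and Nfkbie overlap between diets.

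Of 22 further negative feedback genes, 19 were tested and 0 were called in edgeR. Before adjustment 5 reached p of 0.05 or less (1 higher and 4 lower), beside 20.9% of all genes. DESeq2 called 1, Socs3, lower, beside 6.97% of all genes in either direction. The A20 partner Tnip1 was measured at 12.4, 14.4 and 12.4 CPM with RD and at 9.35, 7.86 and 6.89 CPM with HCD (log2 fold change -0.69, SE 0.19, adjusted p 0.0950 in edgeR). Socs3, an inhibitor of cytokine receptor signalling, was measured at 14.2, 15.4 and 22.5 CPM with RD and at 11.4, 2.96 and 3.65 CPM with HCD, the highest HCD value being that of the liver with the female pattern. Its log2 fold change was -1.51 (SE 0.47, adjusted p 0.125 in edgeR), and -2.4 without that liver (adjusted p 0.0111), a call that DESeq2 (0.00565) and edgeR with no filter (0.0481) also made with all 6 livers. Tnip2, another A20 partner, was at -0.64 (adjusted p 0.429 in edgeR), and between -0.95 and -0.27 with 1 liver left out. Rnf11, a component of the A20 complex, was at 0.01 (adjusted p 0.987 in edgeR). The rise of Nfkbia was therefore not joined by a called rise of any other feedback gene listed.

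Of 28 genes listed as induced by NF-κB (cytokine, chemokine, adhesion and other genes), 26 were in the tables and 16 were tested. Saa3 was called higher and Cxcl1 lower, beside 1.95% and 1.32% of all genes. Before adjustment 4 were higher and 1 lower at p of 0.05 or less, beside 20.9% of all genes in either direction. The diets did not overlap for 5 higher and 2 lower, beside 14.0% and 13.7%. DESeq2 called 3 higher (Saa3, Gadd45b and Cxcl10) and 1 lower, beside 6.97% in either direction. The median log2 fold change of the list, 0.59, was 0.31 in limma on log2(FPKM + 1) and 0.88 without HCD replicate 2. Gadd45b, a stress-induced gene, had a log2 fold change of 2.18 (SE 0.63, adjusted p 0.101 in edgeR and 0.00325 in DESeq2). Its level in HCD replicate 2 lay below that in RD replicate 2, so that the diets overlapped. Cxcl10, an interferon-induced chemokine, had a log2 fold change of 1.45 (SE 0.43, adjusted p 0.110 in edgeR and 0.0273 in DESeq2). Tnf held 0 to 8 counts and Il6 0 to 9 counts per liver, under the filter. Cxcl1, a neutrophil-attracting chemokine with the κB match printed above, was measured at 21.5, 27.9 and 23.9 CPM in the RD livers and at 2.98, 2.21 and 8.75 CPM in the HCD livers (log2 fold change -2.42, SE 0.45, adjusted p 0.0304 in edgeR). Its call was kept only without HCD replicate 3, the highest of the HCD livers, and was lost without any other liver (adjusted p 0.0503 without HCD replicate 2 to 0.120 without RD replicate 2). Leaving out HCD replicate 3 moved its log2 fold change to -3.22, and leaving out others gave -2.5 to -2.09. Saa3, an inducible serum amyloid gene, was measured at 4.85, 5.72 and 7.55 CPM with RD and at 15.3, 48.0 and 22.5 CPM with HCD (log2 fold change 2.24, SE 0.41, adjusted p 0.0295 in edgeR), a call lost without RD replicate 1 (adjusted p 0.129), RD replicate 2 (0.124), RD replicate 3 (0.0656) or HCD replicate 3 (0.0707). Leaving out HCD replicate 2, the highest liver, moved its log2 fold change to 1.64, and leaving out others gave 2.1 to 2.54. Thus these genes changed in opposite directions in the same livers. Lcn2, an iron-binding acute-phase gene, was at 1.11 on the log2 scale (adjusted p 0.217 in edgeR), and Sod2, the mitochondrial superoxide dismutase, one of 0.34 (adjusted p 0.270).

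Among 13 genes of endotoxin binding, clearance and cytosolic sensing, 11 were tested. Apoe was called higher and 1 gene (values not reported here) lower, beside 1.95% and 1.32% of all genes. DESeq2 called 1 lower and 2 higher, beside 6.97% of all genes in either direction. The 2 were Apoe and Scarb1, a lipoprotein receptor that also takes up endotoxin. Scarb1 was measured at 255, 219 and 218 CPM with RD and at 367, 374 and 333 CPM with HCD (log2 fold change 0.63, SE 0.14, adjusted p 0.0514 in edgeR, 0.00258 in DESeq2 and 0.0439 after removal of the trend with gene length). Apoe, a lipoprotein protein that can bind endotoxin, was measured at 16900, 16400 and 16500 CPM with RD and at 34200, 28700 and 37400 CPM with HCD (log2 fold change 1.01, SE 0.20, adjusted p 0.0373 in edgeR), a call lost in limma on log2(FPKM + 1) or log2(FPKM + 0.1), with adjusted p of 0.229 and 0.249, with a filter at a mean of 50 counts (0.0545) and after removal of the trend with gene length (0.0691). It was also lost without RD replicate 1 (adjusted p 0.162), RD replicate 2 (0.163), RD replicate 3 (0.0863) or HCD replicate 3 (0.0759). Gbp2, an interferon-induced GTPase of the cytosolic endotoxin response, was at 1.02 on the log2 scale (adjusted p 0.358 in edgeR). Of the TNF and IL-1 receptors and adaptors, 7 of 9 were tested and 0 were called in edgeR. Before adjustment 1 was lower at p of 0.05 or less, beside 9.81% of all genes. DESeq2 called 1 lower, beside 6.97% in either direction. Il1r1, the IL-1 receptor, was at a log2 fold change of -0.97 (adjusted p 0.194 in edgeR, 0.032 in DESeq2, and -1.33 with 0.045 without RD replicate 3), and Tnfrsf1b, Tradd and Tnfrsf1a were not called.

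The 9117 tested genes whose mean reached 5 CPM were ranked by how closely their log2 CPM, centred on the 6 livers, followed each called gene. Nearest to Nfkbia were Psme2, a subunit of the proteasome activator, with a root mean square difference of 0.138, Oxld1 at 0.152 and Nudt19 at 0.163. Psme2 was measured at 24.8, 23.6 and 24.1 CPM with RD and at 53.5, 46.9 and 68.6 CPM with HCD, so that HCD replicate 3 was highest for both genes. Nearest to Cd14 were the pseudogene Hmgb1-ps2 at 0.210, whose reads may be shared with its parent gene and are uncertain, and Gm3362 and the lipid droplet enzyme gene Hsd17b11, both at 0.239. As Cd14 and Nfkbia separate the diets, genes chosen for likeness to them do so by that choice, and Hmgb1-ps2, Gm3362 and Oxld1 reached 5 CPM only through their HCD values. Oxld1 was not called (adjusted p 0.0538 in edgeR). It was called in DESeq2 (0.00496) and in edgeR with upper-quartile factors (0.0488), with no filter (0.0251) and without HCD replicate 2 (0.0461).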

How the data were processed

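Liver total RNA of 3 RD and 3 HCD mice was sequenced, with 1 library per liver, and diets and replicate numbers were taken from the sample titles. The authors deposited read counts per gene, as whole numbers without normalization, and FPKM, per kilobase of exon length and per sequenced total. The log2 fold changes and p-values that the authors deposited hold their own comparison and were not used. The submitters' processing notes name STAR, HTSeq, DESeq2, edgeR and GRCm39 without roles, whereas the gene lengths implied by the deposited values equal those of GENCODE M21 (GRCm38) within 0.1% for 95.5 to 95.9% of genes. Library kit and strand are not given in the sources used here. Of 20673 genes, 20666 matched GENCODE M21 by Ensembl identifier, and positions are from it.

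Counts were fitted with edgeR 4.0.16 in R 4.3.3 (TMM factors 0.886 to 1.07, filterByExpr, quasi-likelihood F test of diet, two-sided, Benjamini-Hochberg, adjusted p under 0.05), which tested 13105 genes and called 255 higher and 173 lower. Scripts were tested on simulated counts. DESeq2 1.42.0, limma 3.58.1 and the other alternatives were run as given under the dependence on processing. CPM is TMM-scaled. Single values were also compared with exact permutation tests (20 assignments, smallest p 0.1). Intervals are 95% intervals of the fit. No replicate pair differed by as little as sampling noise. Depths and floors cover counting error only. RefSeq start windows (250 bases upstream, GRCm38.p6) were searched for the κB consensus.

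Genes named were the 10 members, every called gene, the 3 largest differences among genes whose mean reached 5 CPM and the highest FPKM in each pathway list, the called and most abundant genes of each marker list, and the 3 genes nearest in pattern to each called member. The other genes named, among them Tnf, Il6, Nfkbib, Nfkbie, Rel, Relb, Clec4f, Gadd45b, Cxcl10, Cd180, Tlr5, Tlr7 and Scarb1, were chosen after their values were seen. The members and lists were chosen with earlier results of these data known. Sequence of Cd14 and the values of 1 called gene of the pathway lists, which the counts include, are not reported here.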

Additional observations from a re-analysis of the deposited data

How the results depend on the processing

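Cd14 and Nfkbia stayed higher with HCD under every alternative run, and both stayed called in each alternative that kept all 6 livers except the replicate block, in which Cd14 was lost (log2 fold change 2.28, adjusted p 0.0537 in edgeR) and 1 of the 10 genes was called. The same replicate numbers in both diets did not pair the livers: deviations of same-numbered livers correlated at -0.0838, 0.119 and -0.0298, and only replicate 2 was nearest to its own number from both sides. The replicate block called 136 genes in all, and 0 of the other pathway genes, and lost the call of Cd68 (adjusted p 0.0657 in edgeR). The count of genes called, 428 in the main test, was 992 in DESeq2, 649 with no filter, 251 after removal of the trend with gene length and 2739 at p of 0.05 or less before adjustment, and 39 to 387 with 1 liver left out. Of the 10 genes, 0 to 2 were called with 1 liver left out. Of the other pathway genes, 14 were called in DESeq2, 11 with no filter and 0 to 5 with 1 liver left out, against 7. A liver left out leaves 2 against 3, with fewer degrees of freedom.
Genes near 0 changed sign: Lbp without RD replicate 3 (-6.9e-05, range with 1 liver left out to 0.33), Rela without RD replicate 2 (0.03, from -0.18), Chuk after removal of the trend with gene length and without HCD replicate 3 (0.01 each, from -0.09), Rnf11 with library sizes alone (-0.06), in DESeq2 (-0.00718), with no filter (-0.00726) and without RD replicate 1 (-0.08), RD replicate 2 (-0.0077) or HCD replicate 2 (-0.11, to 0.11), and Spp1 after removal of the trend with gene length (-0.02) and without RD replicate 3 (-0.19) or HCD replicate 3 (-0.06, to 0.47). None of these genes was called. Depth limits Tlr4 and Cd14, among others, with 3 to 43 and 16 to 131 counts per liver.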
